A study of Saccharomyces cerevisiae with 6 samples.

Results

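The longest protein-coding genes of *Saccharomyces cerevisiae* were examined for contacts with the nuclear pore complex (NPC) after heat shock. They are the nuclear protein-coding genes of the R64 annotation that span at least 4 kb with 1 uninterrupted coding segment. Genes within 20 kb of a chromosome end, genes overlapping a mobile element, *SIN3*, and symbols starting with *FLO* or *YRF1* were left out. The rule used no measured value and chose 178 of 6002 nuclear protein-coding genes, or 178 of the 5397 genes that met it at any length. A further 62 of the 240 genes of 4 kb and over failed at least one of these conditions. The 178 genes ran from 4011 bp (*SEC3*) to 14733 bp (*REA1*), with a median of 4748 bp, and held 7.81% of the nuclear genome.

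The data are lists of Nic96 ChIP-seq peaks, which are regions where DNA crosslinked to Nic96 was enriched. All 6 samples of the study were BY4742 cells, *MATalpha* with the alleles *his3Δ1*, *leu2Δ0*, *lys2Δ0* and *ura3Δ0*, that carried the plasmid pRS313, and all were immunoprecipitated with a monoclonal c-Myc antibody. The tagged *tho* cells (*mft1*::NatMX, Nic96-13myc-KanMX) and their untagged counterpart (*mft1*::KanMX) were kept at 37 °C for 15 min. The tagged *wt* cells (Nic96-13myc-KanMX) and untagged *wt* cells were sampled at 37 °C after 15 min and also at 25 °C. Peak lists were analysed for the tagged *tho* and *wt* cells at 37 °C, each called by the authors against its own untagged library, and the other 4 samples were not analysed here on their own. There was 1 library per condition, so no difference has a replicate check, no p-value is given, and all intervals cover counting error only. The experiment mapped the sites that NPCs contact upon heat shock in both strains.

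Nic96 is a scaffold protein of the inner ring of the NPC, the channel through which RNA and proteins cross the nuclear envelope. Active genes can be tethered to NPCs, and heat shock genes are a well-known yeast case. Mft1 is a subunit of the THO complex, which packages nascent RNA. Without THO, nascent RNA pairs more often with its template DNA to form R-loops, and long transcripts are made poorly. The longest yeast genes encode giant scaffolds, multifunctional enzymes, transporters, motor proteins and signalling regulators.

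With peaks of a q-value of 0.05 or more set aside, the *tho* list held 608 peaks, of which 37 were mitochondrial, and the *wt* list held 993 peaks, all nuclear. The nuclear peaks that overlapped a gene of 4 kb and over numbered 46 in *tho* (8.06% of 571) and 118 in *wt* (11.9% of 993). The number of reads behind the lists is unknown, and each list was called on its own. A difference in peak number or peak width between *tho* and *wt* therefore cannot be told apart from a difference in depth, and fold enrichments are given within a list only.

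Long genes were touched by a peak more often than shorter ones in both lists. In *tho*, 33 of the 178 genes (18.5%, 95% exact binomial interval 13.1 to 25.0) were overlapped by at least 1 bp of a peak, beside 7.47% of all 5397 genes. In *wt*, 75 genes (42.1%, 34.8 to 49.7) were, beside 12.5% of all genes. A long gene offers more sequence to a peak, so summits, the points of highest enrichment, were also counted per 100 kb of gene. By that measure the long genes had 4.24 summits per 100 kb in *tho* (exact Poisson interval 3.03 to 5.78) and 12.3 in *wt* (10.2 to 14.8).

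The *wt* rate was higher in each longer class of genes, and the *tho* rate had no such order. In *tho* there were 4.83 summits per 100 kb in genes under 1 kb, 2.52 at 1 to 2 kb, 3.63 at 2 to 4 kb and 4.24 at 4 kb and over. In *wt* there were 7.13, 8.51, 10.5 and 12.3 in the same classes. The intervals of the long genes overlapped those of the 2 to 4 kb genes in both lists (2.96 to 4.42 in *tho*, 9.37 to 11.8 in *wt*). The *wt* rate moved with the peaks admitted: with a q-value under 0.01 it was 8.17, and 31.5% of the long genes then had a *wt* peak. Peaks on long genes had a median −log10 q-value of 6.80 in *tho* and 2.46 in *wt*, where a lower value is a weaker call. Many of the *wt* peaks on single genes described below were thus weak calls.

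**Figure D1:**
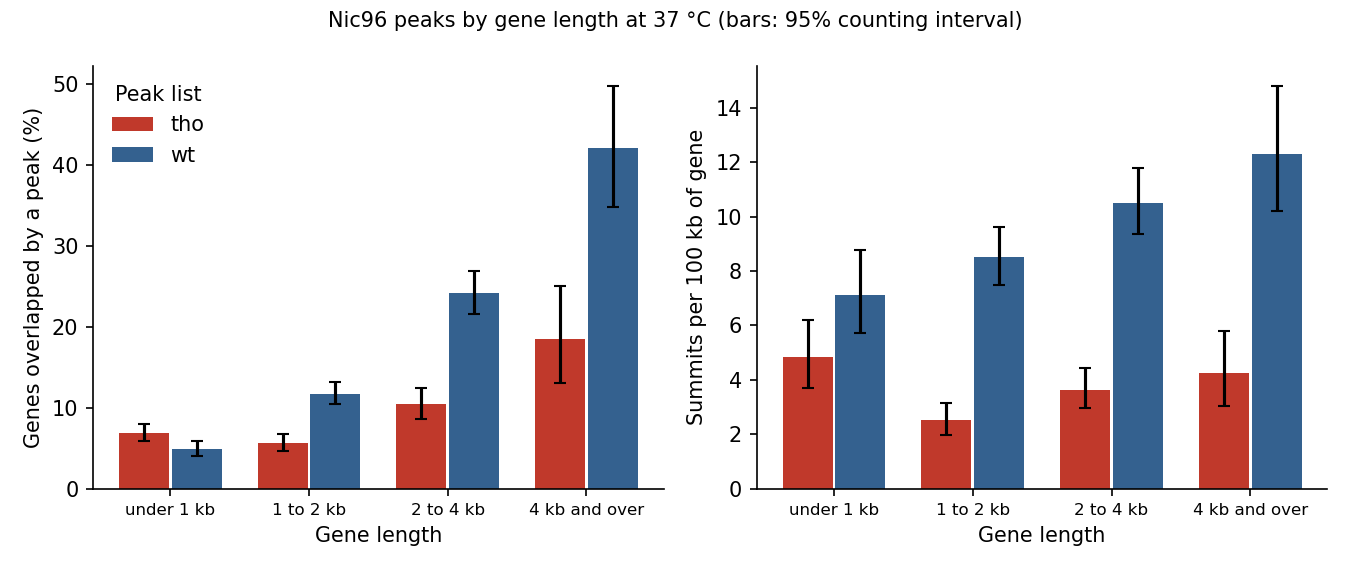
Share of genes overlapped by a Nic96 peak (left, percent) and summits per 100 kb of gene (right) in 4 classes of gene length, for *tho* (red) and *wt* (blue), with 95% exact counting intervals. Genes of 4 kb and over had the highest share in both lists, 18.5% in *tho* and 42.1% in *wt*, and the highest *wt* rate at 12.3, while the highest *tho* rate was that of genes under 1 kb at 4.83.

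The order in *wt* ran on within the long genes. A *wt* peak was found on 33.6% of the 110 genes of 4 to 5 kb, 48.4% of the 31 genes of 5 to 6 kb, 57.7% of the 26 genes of 6 to 8 kb and 72.7% of the 11 genes of 8 kb and over. The *wt* rates in these classes were 10.2, 13.0, 14.9 and 16.4 summits per 100 kb, with overlapping intervals. In *tho* the shares were 17.3%, 19.4%, 11.5% and 45.5%, the last of which counts the 5 genes *IRA1*, *IRA2*, *NUM1*, *TOM1* and *VPS13*. The longest gene of all, *REA1*, which encodes a giant ATPase of ribosome assembly, had no *tho* peak and 1 *wt* peak of 249 bp. *DYN1* (12279 bp), the dynein heavy chain, had none in either list.

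At the 4 kb limit itself the counts were small. Just inside it, *SEC3* and *POM152* had no peak and *YLR278C* (4026 bp) had 1 in each list. Just outside it, *SPT7* and *SSK22* had none and *ADR1* (3972 bp) had 3 *tho* and 2 *wt* peaks.

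Most long genes with a *tho* peak also had a *wt* peak. Both lists touched 24 of the 178 genes (13.5%, beside 2.52% of all genes), *tho* alone touched 9, *wt* alone 51 and neither 94. Genes touched by *tho* alone were 5.06% of the long genes and 4.94% of the genes under 4 kb, and genes touched by *wt* alone were 28.7% and 9.31%. The 24 genes are 72.7% of the *tho* genes and 32.0% of the *wt* genes. Among the 1046 genes of 2 to 4 kb, the 51 shared genes were 46.8% of the *tho* genes and 20.2% of the *wt* genes. Fewer of those genes had a peak at all, 10.4% in *tho* and 24.2% in *wt*, against 18.5% and 42.1% of the long genes. The higher shared percentages of long genes thus cannot be read as closer agreement of the lists. The 9 long genes with a *tho* peak alone, a share close to that of shorter genes, were *APC1*, *ATG2*, *DNF2*, *IML1*, *MHP1*, *NUP188*, *PDR10*, *TAO3* and *YCF1*, each with 1 peak. Of these, *DNF2* and *TAO3* had 1 *wt* peak each among all deposited peaks, whatever their q-value, so they are *tho* alone only at the q-value limit used.

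The gene contacted over the largest part of its length in *tho* among genes of 8 kb and over was *IRA2* (chrXV, 171070 to 180309, + strand, 9240 bp), whose product is a GTPase-activating protein that switches off Ras. In *tho*, 4 peaks covered 63.2% of the gene, and in *wt*, 6 peaks covered 33.5%. The largest *tho* peak was 3191 bp wide, with a fold enrichment of 6.14 and its summit 55.0% of the way from start to stop codon, and the next was 1772 bp wide, with a fold of 4.57 at 32.1%. The 6 *wt* peaks were 359 to 714 bp wide, with folds of 1.83 to 2.11. The largest *tho* peak spanned 3 separate *wt* peaks, and at 3 places the summits of both lists fell within 28 bp of each other. The DNA at these 3 places is shown because both libraries point to it. It is the R64 (sacCer3) RefSeq sequence on the coding strand, with the *tho* summit at the centre of each window and the summit bases of both lists in capitals. In the second window both lists have the same summit base.
*IRA2*, chrXV:172642-172762, + strand: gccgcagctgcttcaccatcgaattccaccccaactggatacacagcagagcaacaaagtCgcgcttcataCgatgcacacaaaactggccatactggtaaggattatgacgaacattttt
*IRA2*, chrXV:173973-174093, + strand: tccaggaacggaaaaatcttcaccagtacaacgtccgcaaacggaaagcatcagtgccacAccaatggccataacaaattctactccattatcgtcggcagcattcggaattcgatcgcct
*IRA2*, chrXV:176091-176211, + strand: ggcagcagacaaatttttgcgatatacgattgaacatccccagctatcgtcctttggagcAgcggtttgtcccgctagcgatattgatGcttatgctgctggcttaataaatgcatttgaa
These windows hold 47.9%, 47.9% and 44.6% GC, against 37.2% in the whole gene. The paralogue *IRA1* (chrII, 9279 bp) had 2 *tho* peaks, at 80.4% and 90.8%, and 1 *wt* peak, at 79.8%. They covered 11.2% of *IRA1* in *tho* and 5.0% in *wt*, all of it near the 3′ end, and the nearest summits of both lists were 49 bp apart.

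**Figure D2:**
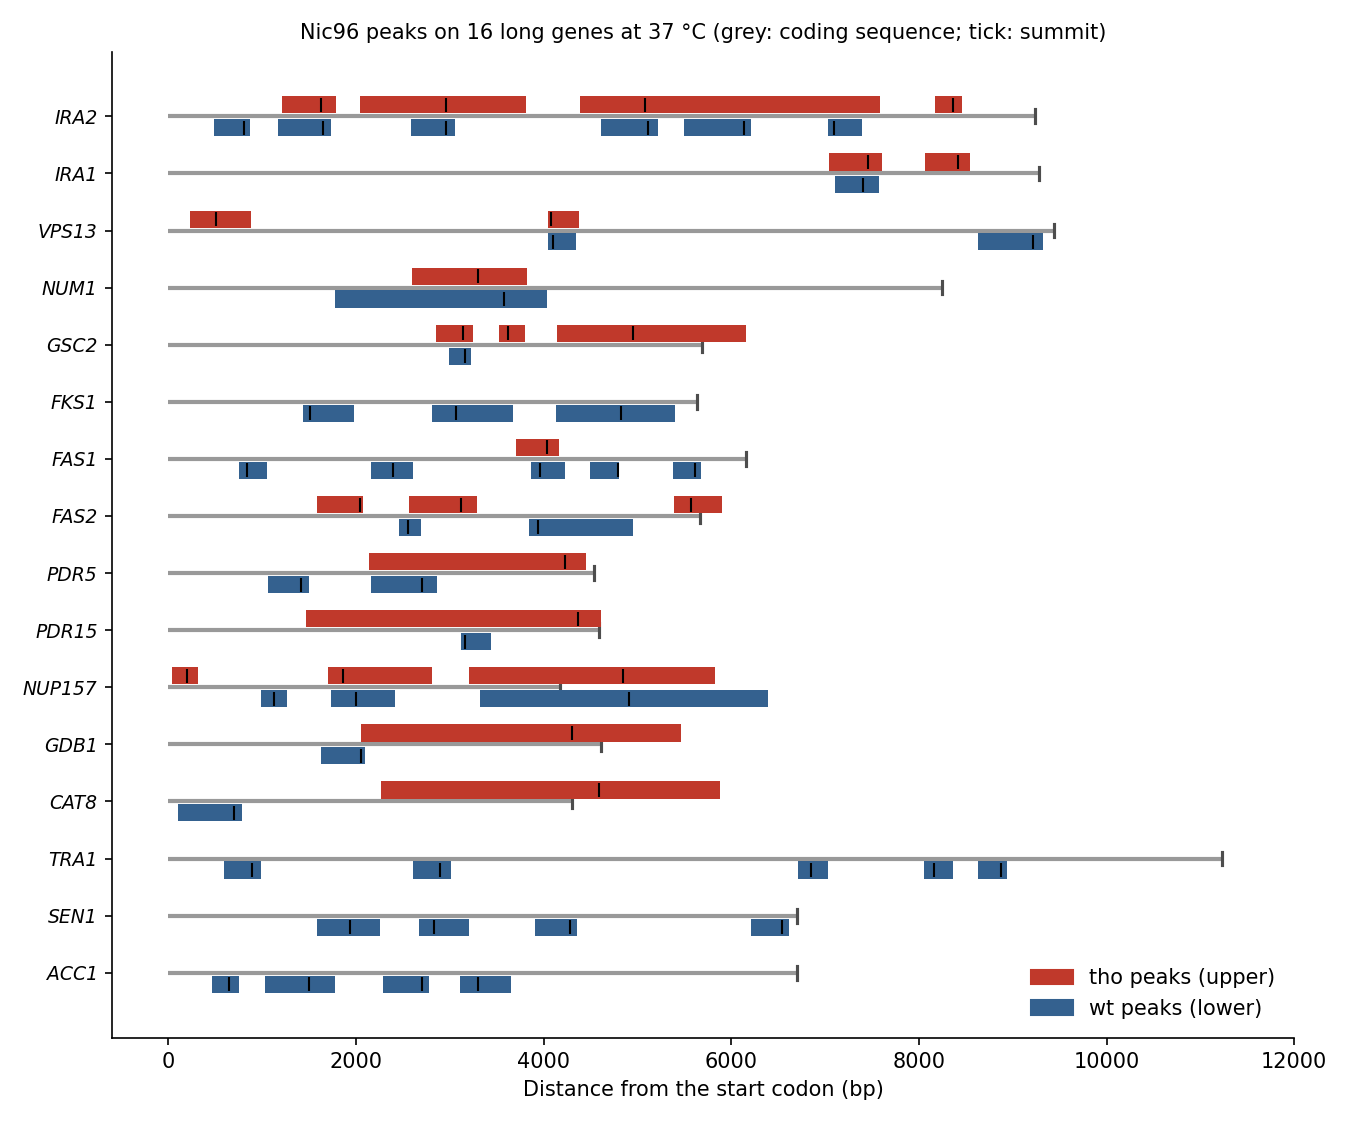
Peaks on 16 long genes, drawn to scale from the start codon (distance in bp), with *tho* peaks in red above each gene, *wt* peaks in blue below it, and summits as black ticks; the grey line ends at the stop codon. The wide *tho* peaks lie over the 3′ parts of *PDR5*, *PDR15*, *GDB1* and *CAT8*, *IRA2* is covered over 63.2% of its length in *tho*, and *TRA1*, *SEN1*, *ACC1* and *FKS1* carry *wt* peaks alone.

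The 3′ part of long genes held the largest share of *tho* summits. Each gene was divided into 3 equal parts from start to stop codon. Of the 40 *tho* summits inside a gene, 12.5% lay in the 5′ part, 30.0% in the middle part and 57.5% in the 3′ part (40.9 to 73.0), and 16 (40.0%, 24.9 to 56.7) lay in the last 10% of the gene before the stop codon. The 116 *wt* summits were placed otherwise, with 25.9% in the 5′ part, 47.4% in the middle part and 26.7% in the 3′ part (18.9 to 35.7), and 10 (8.62%, 4.21 to 15.3) in the last 10%. The fullest stretch in *wt* ran from 40% to 50% of the gene, with 19.8% of summits. The median summit lay 1057 bp before the stop codon in *tho* and 2784 bp before it in *wt*.

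In genes of 2 to 4 kb, 39.6% of 101 *tho* summits and 8.53% of 293 *wt* summits lay in the last 10% of the gene, and 70.3% of *tho* and 36.2% of *wt* summits lay in the 3′ part. The middle part held 11.9% of *tho* summits there (6.29 to 19.8), and the fullest stretch in *wt* ran from 70% to 80% of the gene, with 15.7%. In the 68 genes of at least 5 kb, 43.5% of *tho* summits (23.2 to 65.5) lay in the 3′ part, as many as in the middle part.

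**Figure D3:**
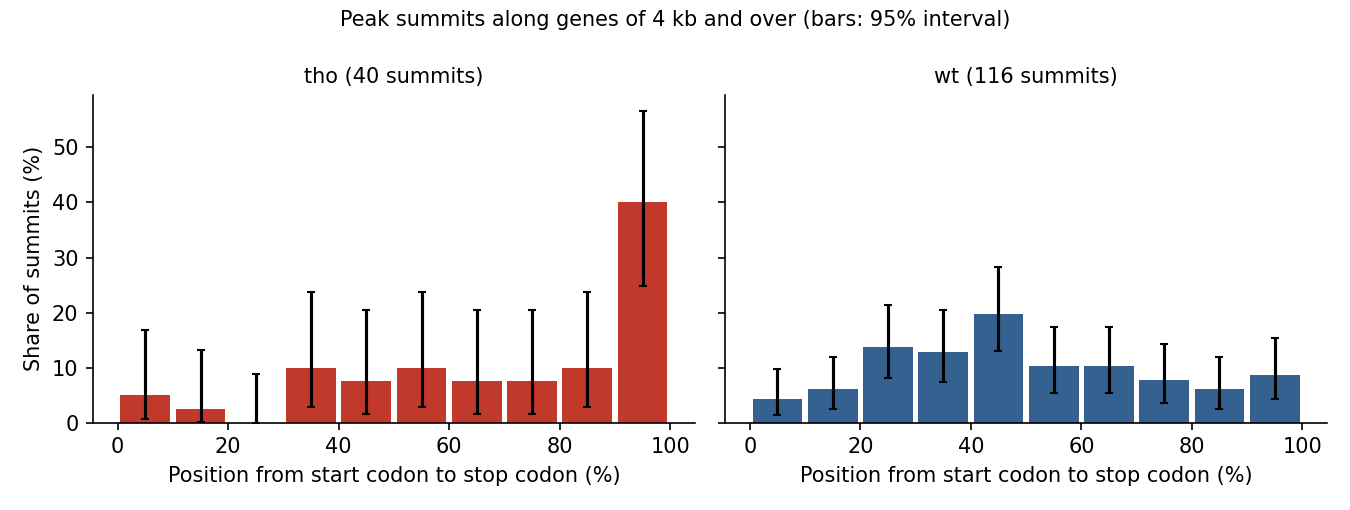
Share of peak summits (percent) in each 10% of the gene from start codon to stop codon, for 40 *tho* summits (left) and 116 *wt* summits (right) inside genes of 4 kb and over, with 95% exact binomial intervals. The last 10% holds 40.0% of *tho* summits and 8.62% of *wt* summits, and the stretch from 40% to 50%, with 19.8%, is the fullest in *wt*.

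The 16 *tho* summits of the last 10% belonged to 16 different genes. Their peaks had a median width of 543 bp, against 464 bp for *tho* peaks with a summit elsewhere inside a long gene. The next gene downstream faced the long gene (convergent) in 8 of the 16 and pointed the same way (tandem) in the other 8, while 53.4% of all 178 genes had a convergent neighbour. No *tho* peak on a long gene lay within 1 kb of a tRNA gene, and 1 *wt* peak did, at the 3′ end of *FAB1*, where it overlapped the tRNA gene.

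Peaks also ran past the stop codon, in 11 of 46 *tho* peaks (23.9%) and 2 of 118 *wt* peaks (1.69%). Like that of peak width, this difference between the lists cannot be told apart from one in depth. In *tho* these peaks reached between 25 bp (*PDR15*) and 1647 bp (*NUP157*) beyond the gene. The others over 500 bp were *CAT8* at 1576 bp and *GDB1* at 855 bp. In *wt* they reached 2216 bp beyond *NUP157* and 340 bp beyond *FAB1*. Another 2 *tho* peaks began before the start codon, 2268 bp before *IQG1* and 524 bp before *NUP188*.

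For 6 *tho* and 2 *wt* of these peaks the summit itself lay outside the long gene. Summits were inside for 87.0% of *tho* and 98.3% of *wt* peaks on long genes, beside 78.3% and 99.0% on genes of 2 to 4 kb. At *NUP157* the *tho* summit (fold 11.6, the highest on any long gene) and the *wt* summit (fold 4.40, the highest of its list there) lay 59 bp apart, inside the neighbouring gene *RTT105*. The *tho* peak spanned 2621 bp and the *wt* peak 3072 bp, and both extended onto *SSA4*, a heat-inducible Hsp70 chaperone gene. The *tho* peak that touched *IQG1*, which encodes a scaffold of the contractile ring, had its summit in *CIN2* and extended onto *HSP82*, an Hsp90 chaperone gene, with a fold of 7.69. At *CAT8*, *FKS3*, *NUP188* and *SSN2* the *tho* summit lay between genes, 324 to 456 bp from the nearest other gene. Without peaks whose summit lay outside the gene or that were mostly repeated sequence, an alternative chosen after the data were seen, 14.6% of the long genes had a *tho* peak and 41.6% a *wt* peak.

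The widest peaks on long genes were in *tho*, a difference that cannot be told apart from one in depth. In *tho*, 11 of 46 peaks (23.9%), on 9 genes, were over 1000 bp wide, against 6 of 118 *wt* peaks (5.08%), on 6 genes. Among peaks on genes of 2 to 4 kb these shares were 28.7% in *tho* and 2.36% in *wt*. The median width on long genes was 519 bp in *tho* (quartiles 372 and 926) and 397 bp in *wt* (299 and 556). The widest *tho* peak spanned 3613 bp at *CAT8*, which encodes an activator of gluconeogenic genes. That peak covered 47.4% of *CAT8* and extended onto the downstream gene *ATR2*. The next spanned 3414 bp at *GDB1*, the glycogen debranching enzyme. On *GDB1* it took in 55.5% of the gene with its summit at 93.3%, and the 1 *wt* peak there, at 44.6%, was 473 bp wide.

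Of the ABC transporter genes, which encode ATP-driven pumps, 4 of 12 had a *tho* peak (33.3%) and 3 of 12 a *wt* peak (25.0%). Over all long genes these shares were 18.5% and 42.1%. The *tho* peaks of *PDR5*, the main drug efflux pump, and of its relatives *PDR15* and *PDR10* all had their summit at the 3′ end. On *PDR15* the *tho* peak was 3152 bp wide (fold 5.36), covered 68.1% of the gene and had its summit at 95.2%, and the *wt* peak was 320 bp wide, with its summit at 68.9%. On *PDR5* the *tho* peak was 2317 bp wide (fold 4.52), covered 51.1% and had its summit at 93.1%, and the 2 *wt* peaks, of 436 and 709 bp, had theirs at 31.2% and 59.5%. *PDR10* had 1 *tho* peak of 601 bp (fold 2.62) at 95.3% and none in *wt*. The fourth *tho* gene, the vacuolar transporter gene *YCF1*, differed from these, with its summit at 50.5%. The 3 summit regions of the *PDR* genes are shown as examples of contacts just before the stop codon, which follows the *tho* summit by 312 bp in *PDR5* and 220 bp in *PDR10* and *PDR15*. They are R64 RefSeq sequence on the coding strand, with the *tho* summit base in capitals.
*PDR5*, chrXV:624003-624123, + strand: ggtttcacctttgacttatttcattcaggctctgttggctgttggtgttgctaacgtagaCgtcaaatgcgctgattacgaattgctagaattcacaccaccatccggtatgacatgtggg
*PDR10*, chrXV:936217-936337, + strand: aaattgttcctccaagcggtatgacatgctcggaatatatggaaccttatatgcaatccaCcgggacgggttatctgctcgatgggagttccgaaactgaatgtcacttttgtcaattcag
*PDR15*, chrIV:1283519-1283639, + strand: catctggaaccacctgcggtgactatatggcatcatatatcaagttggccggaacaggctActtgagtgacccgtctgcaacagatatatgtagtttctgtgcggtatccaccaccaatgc
They hold 45.5%, 44.6% and 48.8% GC in the order shown. The other 8 ABC transporter genes had no *tho* peak, and of these *SNQ2* alone had a *wt* peak, at 7.1%.

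Of the genes of glucan synthases and cell surface proteins, 4 of 5 had a *tho* peak and 5 of 5 a *wt* peak. All long genes gave 18.5% and 42.1%. The *tho* count includes *HKR1*, whose peak (fold 1.26) consisted wholly of repeated sequence and is described below. It also includes *FKS3*, whose *tho* summit lay outside the gene. *GSC2* and *FKS1* encode alternative catalytic subunits of the enzyme that makes the β-glucan of the cell wall. *GSC2* had 3 *tho* peaks, covering 38.9% of the gene, and 1 *wt* peak, covering 4.0%. *FKS1* had no *tho* peak and 3 *wt* peaks covering 47.5%. With all deposited peaks, whatever their q-value, *GSC2* and *FKS1* had 3 *wt* peaks each. The *GSC2* summits stood at 55.2%, 63.7% and 87.0% in *tho* and at 55.5% in *wt*, and the *FKS1* summits at 26.8%, 54.5% and 85.6% in *wt*. *FKS3*, another relative, had 2 *wt* peaks inside the gene, at 28.1% and 62.6%, and a *tho* peak that covered its last 33 bp. *FIG2*, a cell wall adhesin of mating cells, had 1 *tho* peak at 33.0% and 2 *wt* peaks at 29.0% and 47.5%, and the *tho* peak overlapped the first of these with summits 195 bp apart.

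The summits of both lists also lay within 100 bp of each other outside *IRA2*. Over all long genes, 18 of 46 *tho* peaks (39.1%) overlapped a *wt* peak and 20 of 118 *wt* peaks (16.9%) overlapped a *tho* peak, in 14 genes. Shares for peaks on shorter genes are not given, so 39.1% and 16.9% cannot be read as particular to long genes. The 20 overlapping pairs had a median summit distance of 112 bp, and in 10 of them it was at most 100 bp. Wide *tho* peaks made some of the other pairs, with summits 1209 bp apart in *PDR15*, 1524 bp in *PDR5* and 2247 bp in *GDB1*. The closest inside genes other than *IRA2* were in *HKR1* (1 bp), *CHC1* (9 bp), *VPS13* (13 bp) and *GSC2* (16 bp). The windows of *CHC1*, which encodes the clathrin heavy chain, *VPS13*, a lipid transfer protein, and *GSC2* are given as further places marked by both libraries, on the coding strand of R64 (RefSeq), with the *tho* summit at the centre and both summit bases in capitals.
*CHC1*, chrVII:103666-103786, - strand: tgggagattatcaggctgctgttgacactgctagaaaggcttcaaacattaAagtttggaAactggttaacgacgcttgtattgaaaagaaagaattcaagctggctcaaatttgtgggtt
*VPS13*, chrXII:59502-59622, - strand: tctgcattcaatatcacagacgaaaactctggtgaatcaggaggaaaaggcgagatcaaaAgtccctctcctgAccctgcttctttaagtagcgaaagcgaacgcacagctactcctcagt
*GSC2*, chrVII:551345-551465, + strand: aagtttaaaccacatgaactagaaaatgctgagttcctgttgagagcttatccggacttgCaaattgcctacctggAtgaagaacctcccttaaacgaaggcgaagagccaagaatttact
The summits stood at 76.2% (*tho*) and 76.0% (*wt*) in *CHC1*, at 43.3% and 43.4% in *VPS13*, and at 55.2% and 55.5% in *GSC2*. GC in the windows was 39.7% in *CHC1*, 47.1% in *VPS13* and 42.1% in *GSC2*.

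The shared peaks of *NUM1* and *HKR1* lay over tandem repeats. *NUM1* encodes a cortical anchor of dynein and mitochondria, and *HKR1* a mucin-like sensor of osmotic stress. On *NUM1* the *tho* peak was 1226 bp wide with its summit at 40.0%, and the *wt* peak was 2259 bp wide with its summit at 43.4%. Of their sequence, 83.8% in *tho* and 65.1% in *wt* consisted of stretches of 75 bases that occur more than once in the genome. On *HKR1* this held for all of the 240 bp *tho* peak and 37.4% of the 1714 bp *wt* peak. The repeat period was 192 bp in *NUM1* and 84 bp in *HKR1*. Successive repeat units are shown, since reads of one unit can match another. Both units lie within the *wt* peaks, and the *tho* peaks end within the second unit. The second unit of each gene has the bases that differ from the first in capitals.
*NUM1*, chrIV:759204-759395, + strand: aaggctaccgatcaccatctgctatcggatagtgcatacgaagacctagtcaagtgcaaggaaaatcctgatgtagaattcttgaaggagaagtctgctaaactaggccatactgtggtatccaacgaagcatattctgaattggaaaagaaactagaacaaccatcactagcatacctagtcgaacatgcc
*NUM1*, chrIV:759396-759587, + strand: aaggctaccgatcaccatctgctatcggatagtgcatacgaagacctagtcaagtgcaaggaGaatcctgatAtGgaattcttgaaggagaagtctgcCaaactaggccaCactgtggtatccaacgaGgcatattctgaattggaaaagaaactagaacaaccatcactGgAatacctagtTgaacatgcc
*HKR1*, chrIV:1308262-1308345, + strand: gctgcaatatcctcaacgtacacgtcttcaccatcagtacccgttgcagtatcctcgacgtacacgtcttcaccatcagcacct
*HKR1*, chrIV:1308346-1308429, + strand: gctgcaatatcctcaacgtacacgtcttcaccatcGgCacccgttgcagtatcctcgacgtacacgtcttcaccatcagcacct
The units of *NUM1* differed at 9 bases and those of *HKR1* at 2. The part of the repeats in these peaks was not tested.

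Among the large metabolic enzymes, 2 of 11 genes had a *tho* peak (18.2%, beside 18.5% of all long genes) and 9 of 11 a *wt* peak (81.8%, beside 42.1% of all long genes). *FAS1* and *FAS2* encode the subunits of fatty acid synthase. *FAS1* had 1 *tho* peak at 65.6% and 5 *wt* peaks between 13.7% and 91.2%, of which the one at 64.3% lay 80 bp from the *tho* summit. *FAS2* had 3 *tho* peaks, at 36.0%, 55.2% and 98.4%, and 2 *wt* peaks, at 45.2% and 69.6%. *ACC1*, the acetyl-CoA carboxylase that feeds the synthase, had no *tho* peak and 4 *wt* peaks, between 9.7% and 49.3% of the gene. *ARO1* had 2 *wt* peaks and *DUR12*, *GLT1*, *HFA1*, *MET5* and *URA2* 1 each. The 2 genes without a peak were *ADE6* and *LYS2*, and *LYS2* is deleted in every strain of the study (*lys2Δ0*).

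Of the genes of RNA processing and ribosome assembly, 1 of 13 had a *tho* peak (7.69%) and 8 of 13 a *wt* peak (61.5%). The shares over all long genes were 18.5% and 42.1%. *SEN1*, a helicase that unwinds RNA from DNA and ends transcription, had no *tho* peak and 4 *wt* peaks, at 29.0%, 42.4%, 63.9% and 97.7%. *PRP8*, the core protein of the spliceosome, had 2 *tho* peaks at 60.4% and 92.8% and 1 *wt* peak at 35.5%. *XRN1*, the cytoplasmic RNA exonuclease, had 2 *wt* peaks. *THO2*, which encodes the largest subunit of the complex that *tho* cells lack in part, had no peak in either list.

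Transcription and chromatin genes gave 2 of 16 in *tho* and 8 of 16 in *wt*, where all long genes gave 18.5% and 42.1%. The *tho* peaks were those of *MOT1*, which removes the TATA-binding protein from DNA (91.6%), and *SSN2*, of the Mediator kinase module, whose *tho* peak covered only its last 106 bp. The chromatin remodellers *SNF2*, *INO80* and *SWR1* had 1 *wt* peak each, with that of *SNF2* 1509 bp wide, and *SIR4*, a silencing protein, had 2. The remodellers *STH1* and *CHD1* had no peak in either list. *RPO21*, the largest subunit of RNA polymerase II, had 1 *wt* peak at 64.4%. *RPA190* and *RPO31*, core subunits of RNA polymerases I and III, had no peak in either list. Of the 9 genes of DNA replication, repair and chromosome structure, *SGS1*, a RecQ helicase, was the 1 gene with a peak. That is 11.1% in each list, beside 18.5% of all long genes in *tho* and 42.1% in *wt*. The *tho* peak of *SGS1* stood at 94.5% and its *wt* peak at 23.2%.

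Among the kinase and nutrient signalling genes, 2 of 13 had a *tho* peak, *IRA1* and *IRA2*, and 4 of 13 a *wt* peak, these 2 with *TRA1* and *TOR2*. These shares, 15.4% and 30.8%, stand beside 18.5% and 42.1% of all long genes. *TRA1* (11235 bp), the activator-binding subunit of the SAGA and NuA4 complexes, had no *tho* peak and 5 *wt* peaks of 309 to 411 bp. These were spread from 8.0% to 79.0% of the gene and covered 15.5% of it. *TOR2* had 2 *wt* peaks and its relative *TOR1* none. The other Ras pathway genes of this group, *CYR1*, the adenylate cyclase, and *CDC25*, the exchange factor that activates Ras, had no peak in either list.

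The nuclear pore genes gave 2 of 8 in *tho* and 4 of 8 in *wt*. These counts stand beside shares of 18.5% in *tho* and 42.1% in *wt* over all long genes. The *tho* count includes *NUP188*, whose *tho* summit lay outside the gene. Besides the peak over *SSA4* and *RTT105*, *NUP157* had 2 *tho* peaks with their summit inside the gene, at 4.7% and 44.5%, and 2 *wt* peaks, at 26.9% and 48.0%. Its paralogue *NUP170* had no *tho* peak and *wt* peaks at 19.1% and 40.9%. *NUP192* and *NUP159* had 1 *wt* peak each, at 23.1% and 36.2%. The peak of *NUP188* covered the first 153 bp of the gene in *tho*. The basket genes *MLP1* and *MLP2* and the membrane ring gene *POM152* had none.

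Of the membrane traffic and cytoskeleton genes, 4 of 21 had a *tho* peak (19.0%) and 11 of 21 a *wt* peak (52.4%). Over all long genes the shares were 18.5% and 42.1%. *VPS13* had 2 in each list, *CHC1* 2 in *tho* and 3 in *wt*, and *STT4*, a lipid kinase gene, 3 in *wt* alone. *MYO2*, a motor that carries vesicles into the bud, and *BNI1*, which nucleates actin cables, had 2 *wt* peaks each. *ATG2*, which transfers lipid to the growing autophagosome, had 1 *tho* peak of 774 bp at 95.9%. Among the phospholipid flippases and related pumps, *DNF2* had 1 *tho* peak and *DNF1* 2 *wt* peaks, of 5 genes. Among the ubiquitin ligases and proteasome activators, *TOM1* had 1 peak in each list and *ECM29* 1 in *wt*, of 7 genes. The shares there were 14.3% in *tho* and 28.6% in *wt*, beside the same 18.5% and 42.1% of all long genes. In the 58 long genes outside these 11 groups, 9 had a *tho* peak (15.5%) and 19 a *wt* peak (32.8%).

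The sequence under the peaks was richer in G and C than the rest of the same gene. This was measured within each gene, as the GC percent under its peaks minus that of its remaining sequence. The median difference was 2.82 percentage points in *tho* (95% interval of the median 2.15 to 3.53), with 26 of 33 genes above 0 (78.8%), and 3.93 points in *wt* (3.35 to 4.71), with 74 of 75 above 0 (98.7%). The largest differences were those of *DNF2* in *tho* (13.47 points) and *STU1* in *wt* (10.14 points). In genes of 2 to 4 kb the medians were 2.66 points in *tho* and 3.49 points in *wt*, with 79.6% and 90.9% of genes above 0.

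The 7 *tho* genes below 0 were *PDR15* (-6.59 points), *GDB1* (-2.47), *PDR10* (-1.70), *PDR5* (-1.27), *SSN2* (-1.11), *RSF2* (-0.88) and *MHP1* (-0.47). All 3 *PDR* genes described above are thus among them. Of the 9 genes with a *tho* peak over 1000 bp, 6 were above 0, with a median of 2.33 points, and of the 24 without one, 20 were, with a median of 3.29 points. In *wt* the 1 gene below 0 was *DUR12* (-1.18 points). Whole genes also differed a little, with a median GC of 38.8% in the 33 genes with a *tho* peak, 38.7% in the 75 with a *wt* peak and 37.1% in the 94 with none. The part of base composition in where peaks were called was not tested.

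**Figure D4:**
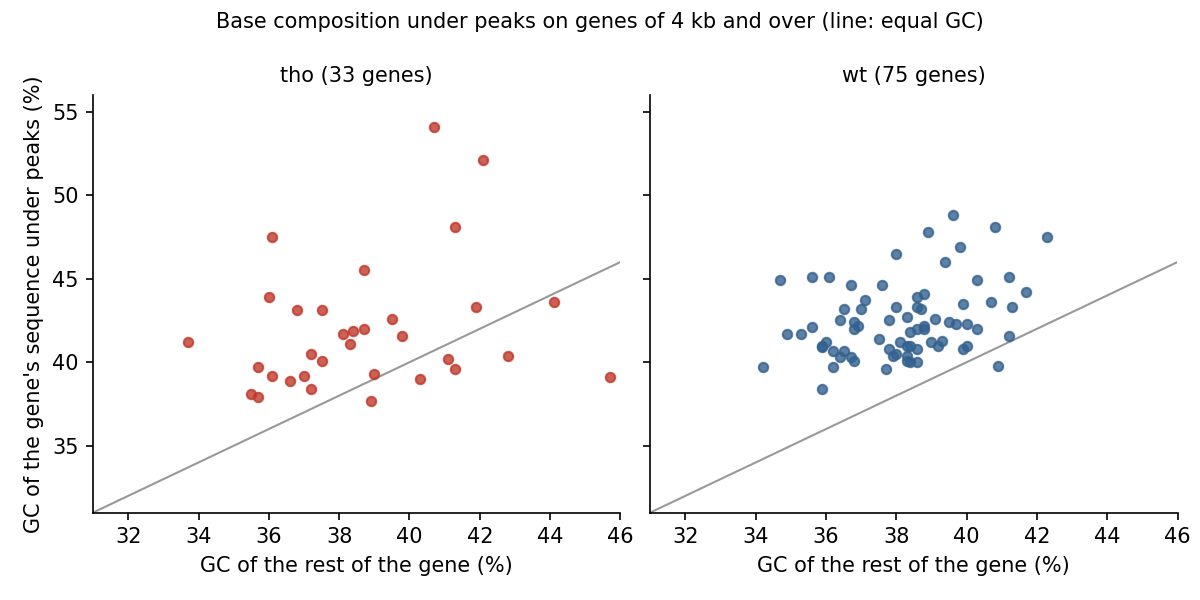
GC percent of each gene's sequence under its peaks (vertical) against GC percent of the rest of the same gene (horizontal), 1 point per gene of 4 kb and over, for 33 genes in *tho* (left) and 75 in *wt* (right), with the line of equal GC. Points above the line number 26 of 33 in *tho* and 74 of 75 in *wt*.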

How the data were processed

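Nic96 ChIP-seq peak lists of 2 of the 6 samples were used. The authors aligned read pairs to the sacCer3 genome using Bowtie2 without mismatches, discarded duplicates with SAMTools and ran MACS2 on each tagged library with the untagged one as its background. Tool versions and read numbers are not given in the sources used here, so depth is unknown. The deposited peaks carry a fold enrichment (a ratio of tagged to untagged library at the summit), the −log10 of a p-value and of a q-value, and a score made from the −log10 p-value (times 10, rounded down). A q-value threshold of 0.05 is stated, but the deposited q-values reach 0.192 in *tho* and 0.178 in *wt*; peaks of q under 0.05 were used, which left 2 *tho* and 24 *wt* peaks on long genes aside.

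Starts were converted to count from 1, and genes, strands and sequence were taken from the RefSeq R64 assembly. A peak counted on a gene it overlapped by at least 1 bp. Intervals are exact at the 95% level (binomial for shares, Poisson for rates, order statistics for medians). The 11 groups were written from knowledge of the genes and list 121, of which *PDR18* is not a member. The members and lists were chosen with earlier results of these data known. Named are genes with 3 or more peaks in a list, with a peak in both lists or with the 5 widest or most enriched peaks of a list, the 5 longest genes, and group members as examples; the 9 genes with a *tho* peak alone, *STU1* and genes named only for a peak outside or near the limit were listed after their values were seen. Alternatives covered the q-value, the overlap rule, merging of peaks, the length limit and repeats. Tables were computed with pandas 2.3.3, scipy 1.17.1 and numpy 2.4.6 under Python 3.11.15, and plots with matplotlib 3.10.9. Placement was tested on simulated data: 100% of summits planted in the 178 genes were found in the right part of the gene.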

Additional observations from a re-analysis of the deposited data

How the results depend on the processing

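The 15 results (7 per list and the share of genes with a peak in both) were recomputed under 7 alternatives and 1 added after seeing the data. Shares, rates and widths have no sign, and the 2 GC differences stayed above 0. With all deposited peaks, the *wt* rate was 14.9 summits per 100 kb, outside the interval of 12.3. With q under 0.01 it was 8.17, the share of long genes with a *wt* peak was 31.5% and the *wt* GC difference 3.27 points. With genes of at least 5 kb, 55.9% had a *wt* peak. In these genes the *wt* rate was 14.6 summits per 100 kb, within the interval of 12.3. The cause of these shifts was not tested. In genes of at least 5 kb the *tho* shares of summits in the 3′ and the middle part were equal, 43.5% each, within the intervals of 57.5% and 30.0%. All other values stayed within the intervals of the main values, including every *tho* value. Counting by summit, merging peaks less than 200 bp apart, a limit of 3 kb (442 genes) and leaving out the 2 genes over 10% repeated moved nothing beyond them. With 1 library per condition and unknown depth, peak numbers and widths of *tho* and *wt* cannot be ranked. No paired analysis was possible because the labels give no replicate numbers and each group had 1 sample.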
